A study of Homo sapiens with 2 samples.

Results

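The 10 genes described here code for matrix metalloproteinases, zinc-dependent proteases that cut proteins of the extracellular matrix and of the cell surface. They were chosen by name, with MMP7, matrilysin, as the gene of most interest. Each had exactly 1 row of its own on the array, so they were 10 of the 22411 genes with a row carrying a single gene symbol. The choice was made with earlier results of the same arrays known, including the lower MMP7 signal in the knockdown, so the values below describe the 2 arrays and no test was run on them.

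Total RNA came from MHCC97H, a human liver cancer cell line of high metastatic potential, and was hybridised to Affymetrix whole-transcript arrays. The series held 1 array of control cells, labelled as high in GP73, and 1 array of cells in which GP73 was knocked down. Both were grown in medium with 10% fetal bovine serum, and no other treatment was recorded. The title of the knockdown sample carries the letters sh before GP73 and that of the control the letters shv. Neither spells out the method. The labels do not say whether the cells were 1 clone or whether cultures were pooled. GP73, encoded by GOLM1, is a Golgi membrane protein, and the stated purpose of the study was to find what acts with or downstream of it in liver cancer cell growth.

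Metalloproteinases are made as inactive precursors. Loss of the propeptide, by other proteases at the cell surface or by furin-like enzymes inside the cell, opens the catalytic site, and the tissue inhibitors of metalloproteinases (TIMPs) block it again. In liver tumours these enzymes come both from the cancer cells and from stromal and immune cells, whereas MMP7 is typically made by epithelial and carcinoma cells. An array reads the transcript alone, so none of the values below is a measure of enzyme activity or of secretion.

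With 1 array per condition there is no replicate error, and every difference is the log2 signal of the knockdown array minus that of the control array. A gene is called measured when its higher signal reached 5.84, the median of that quantity over all genes with a row, and 11206 genes were measured. Signals of different genes come from different probes and were not compared with each other as amounts. As a scale for disagreement between rows of 1 gene, 99 genes had 2 separate measured rows. Their knockdown minus control differences had an SD of 0.133 between the rows of a gene, which leaves out error between cultures or arrays. GOLM1 itself stood at a log2 signal of 9.13 in control cells against 7.46 after knockdown, a difference of -1.67. Of the hepatocyte and liver cancer markers 5 of the 12 with a row were measured, and the signals of AFP, at 2.56 in both arrays, and ALB, at 4.35 and 3.76, lay below the floor. The measured FGA, the fibrinogen alpha chain, was 2.18-fold lower, from 6.10 to a knockdown signal of 4.97 under the floor. It was the one measured marker of this list past 2-fold. FGB, on the same list, was 2.29-fold lower, from 5.13 to 3.93, below the floor in both arrays. The apolipoprotein genes APOB, APOA2 and APOA1 stood at -0.47, 0.23 and 0.14. FGA and APOB passed the floor through the control array alone and APOA2 through the knockdown array alone, which fixes their signs. Of the 2 markers of this list above it on both arrays 1 was higher and 1 lower. Of the epithelial markers 8 of 10 were measured, 3 higher and 5 lower, with OCLN at -0.25, CDH1 at 0.24, CLDN7 at -0.24 and KRT7 at 0.18. OCLN and CLDN7 passed the floor through the control array alone, which fixes their sign as negative. Of the 6 above it on both arrays 3 were higher and 3 lower. The epithelial keratins KRT8, at 10.94 and 10.84, and KRT18, at 10.90 and 10.85, had signals far above the floor.

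The promoter of MMP7 is shown because MMP7 had the lowest difference of the 10 genes, and that of MMP24 because it had the highest. Both are RefSeq windows of build GRCh38.p14, from 250 bases before to 50 bases after the annotated start, written in the direction of transcription. The MMP7 window lies on the minus strand at chr11:102530698-102530997, the MMP24 window on the plus strand at chr20:35226440-35226739. Capitals mark matches to TGANTCA (the AP-1 consensus), CTTTGAT (a TCF motif, with its spellings that end in AA, TT or TA) and AGGAAG (an ETS motif), each searched on both strands, and to TATAAA (the TATA box) on the printed strand.
MMP7: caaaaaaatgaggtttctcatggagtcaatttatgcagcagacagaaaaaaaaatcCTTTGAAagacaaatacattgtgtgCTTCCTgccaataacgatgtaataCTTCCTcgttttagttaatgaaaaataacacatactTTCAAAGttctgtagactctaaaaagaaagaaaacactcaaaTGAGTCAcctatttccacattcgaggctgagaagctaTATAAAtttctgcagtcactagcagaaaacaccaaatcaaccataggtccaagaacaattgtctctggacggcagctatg
MMP24: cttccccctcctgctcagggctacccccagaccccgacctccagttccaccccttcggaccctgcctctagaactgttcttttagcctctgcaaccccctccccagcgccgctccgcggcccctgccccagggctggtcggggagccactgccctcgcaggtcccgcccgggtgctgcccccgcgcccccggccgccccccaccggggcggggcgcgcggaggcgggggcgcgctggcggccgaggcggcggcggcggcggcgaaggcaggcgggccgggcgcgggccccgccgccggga
The MMP7 window held 1 AP-1 match, TGAGTCA, at positions -67 to -61 from the start, 2 TCF matches, CTTTGAA at -194 to -188 and its reverse complement TTCAAAG at -109 to -103, 2 ETS matches, written CTTCCT on this strand, at -169 to -164 and -145 to -140, and 1 TATA match at -30 to -25. None of the matches overlapped another. The TCF spellings were widened after the window had been seen, and CTTTGAT itself was not in it. The window held 35.7% G and C, against 80.0% in that of MMP24, which held no match to any of the motifs. Of the 35116 promoters in the table, 7.71% held the AP-1 letters, 13.8% any of the TCF spellings, 33.6% the ETS letters and 7.33% the TATA letters. Windows were matched for 5 of the 10 genes, and those of MMP11, MMP14 and MMP15 held none of the 4 motifs. MMP1, MMP2, MMP9, MMP13 and MMP19 had no entry. A match is a description of the letters and was not tested as a binding site.

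MMP7, a small secreted protease that cuts matrix proteins as well as E-cadherin and other surface proteins, was lower in the knockdown array. Its row, TC11002228.hg.1, gave a log2 signal of 8.98 in control cells and of 7.68 after GP73 knockdown. The difference of -1.30 is 2.47-fold on the linear scale, which leaves 40.5% of the control signal, and both values were above the floor. Fewer cells with the transcript and less of it per cell cannot be told apart in bulk RNA. It was the 4th lowest difference of the 11206 measured genes. At least 2-fold lower signals were found for 15 measured genes, or 0.134%, and MMP7 was the one member among them. At least 2-fold higher signals were found for 18 genes, or 0.161%, none of them a member. These shares are background, since MMP7 was chosen with this difference known.

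Differences on these arrays depended on the signal level, so each member was set beside the 200 protein-coding genes nearest to it in mean signal. For MMP7 those genes had a median difference of -0.091 and a central 95% from -0.59 to 0.43. Of the 200, 2 had a lower difference than MMP7, namely the targeted gene GOLM1 and ITIH2, which codes for a hyaluronan-binding heavy chain of inter-alpha-trypsin inhibitor. ITIH2 went from 9.02 to 7.62. MMP7 lay outside the central 95% of its neighbours in signal, at -1.21 relative to their median.

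The protein-coding genes whose signals in both arrays came closest to those of MMP7 were ITIH2, CP, GOLM1, MARCKS and ANP32E, judged on each array and taking the larger distance. ITIH2 was within 0.056 of MMP7 in both arrays. CP, the copper-carrying plasma ferroxidase ceruloplasmin, went from 8.82 to 7.71 and was within 0.16. MARCKS, a substrate of protein kinase C, and ANP32E, a histone chaperone, had differences of -0.82 and -0.86. Likeness was measured over 2 arrays, which describes levels and cannot show that genes vary together. Choosing genes by both signals also makes their differences close to that of MMP7 in advance.

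**Figure D1:**
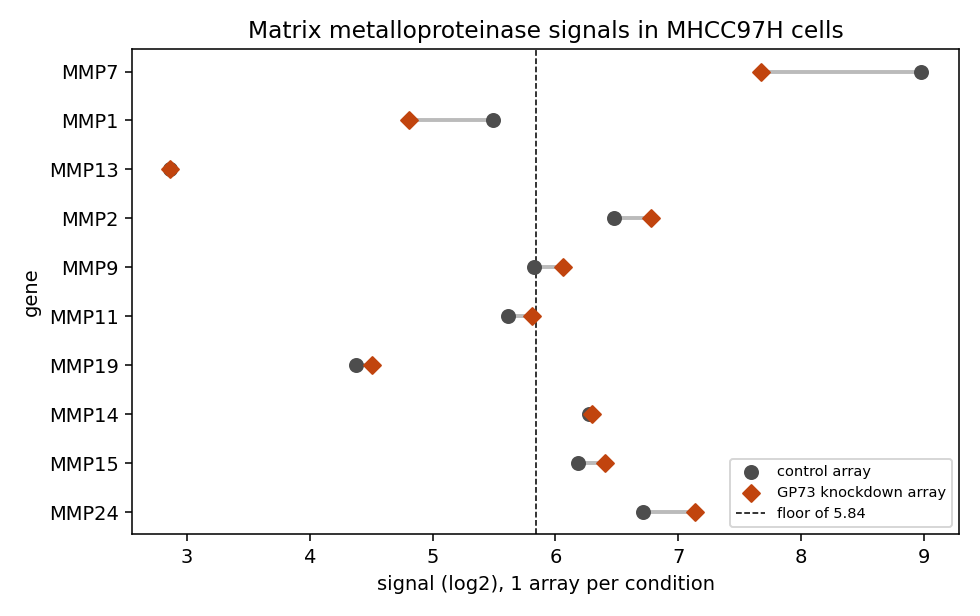
Log2 signal (x axis) of each of the 10 metalloproteinase genes (y axis) in the control array (grey circles) and the GP73 knockdown array (orange diamonds), joined by a line, with the floor of 5.84 dashed; each symbol is 1 array. MMP7 moves from 8.98 to 7.68, MMP1 moves left below the floor, and the symbols of MMP13 coincide.

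The interstitial collagenases MMP1 and MMP13, which cut fibrillar collagen, had signals below the floor in both arrays. MMP1 went from 5.49 in control cells to 4.81 after knockdown. Its difference of -0.69 is 1.61-fold lower, and 2 of its 200 neighbours in signal had a lower one, the central 95% of these genes reaching from -0.44 to 0.50. Because both signals were below the floor, its size is uncertain. Beside MMP7 it was the other of the 10 genes that was at least 1.5-fold different. At that threshold 1.25% of all 22411 genes were lower and 1.16% higher, and of the measured genes 1.55% and 1.08%. MMP13 had the same signal, 2.86, in both arrays. Such ties were not rare, with 1164 of the 22411 genes at the same value in both arrays.

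The gelatinases MMP2 and MMP9, which degrade denatured collagen and the type IV collagen of basement membranes, were somewhat higher in the knockdown array. MMP2 went from 6.48 to 6.77, a difference of 0.30, and 185 of its 200 neighbours in signal had a lower difference. MMP9 went from 5.83 to 6.06, a difference of 0.24, and 155 of 200 neighbours had a lower one. Its control signal was just under the floor, so it counted as measured through the knockdown array alone. Both genes lay inside the central 95% of genes of like signal.

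The membrane-anchored enzymes MMP14, MMP15 and MMP24 act at the cell surface, where MMP14 is known to activate the MMP2 precursor. MMP14 had almost the same signal in the arrays, 6.28 and 6.30, a difference of 0.025. MMP15 went from 6.18 to 6.40, a difference of 0.22, with 158 of 200 neighbours lower. MMP24 went from 6.71 to 7.13, a difference of 0.42 or 1.34-fold higher. It was the highest difference of the 10 genes, with 195 of its 200 neighbours in signal lower, at the upper edge of their central 95%, which ended at 0.42. MMP24 lay 0.49 above the median of these neighbours. The antisense transcript MMP24-AS1, not one of the 10 genes, went from 5.64 to 5.77.

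The remaining members are the secreted enzymes MMP11, known from the stroma of tumours and activated by furin-like enzymes inside the cell, and MMP19, a protease of basement membrane proteins. MMP11 went from 5.61 to 5.81, a difference of 0.20, with 135 of 200 neighbours lower. MMP19 went from 4.38 to 4.50, a difference of 0.12, with 85 of 200 neighbours lower. Both genes were below the floor in both arrays.

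Over the 10 genes the differences did not share a direction. The values were higher in the knockdown array for 7 genes, lower for 2 and the same for 1, but with median centring, quantile normalisation or the trend over signal removed MMP14 and MMP13 both lay below 0. The positive ones ran from 0.025 to 0.42, none reached 1.5-fold, and the median over all 10 genes was 0.16. Without MMP7 it was 0.20. Over all genes with a row the median was 0.060, and over the protein-coding genes below the floor 0.13. Against the medians of their own neighbours in signal, which ran from -0.091 to 0.17, 5 members lay above and 5 below. Relative to that median 2 members differed by at least 1.5-fold, MMP7 and MMP1, and 4 lay within 0.133 of it, the SD between rows of 1 gene. Of the 10 genes 6 were measured and 4 were not.

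**Figure D2:**
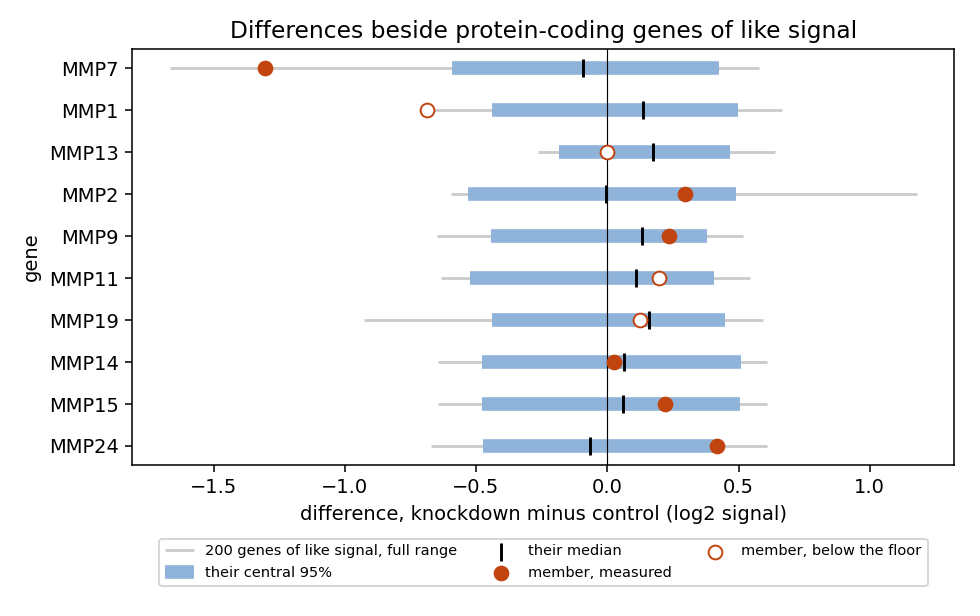
Difference in log2 signal, knockdown minus control (x axis), of each of the 10 genes (y axis; filled circles measured, open circles below the floor in both arrays). The grey line is the full range, the blue bar the central 95% and the black tick the median of the 200 protein-coding genes of like signal; MMP7 at -1.30 and MMP1 at -0.69 lie left of their bars and MMP24 at 0.42 lies at the end of its bar.

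On chromosome 11 MMP7 and MMP1 belong to a cluster of metalloproteinase genes, which was looked at gene by gene in the order of the RefSeq table. TMEM123, a membrane glycoprotein gene next to MMP7 on one side, had signals of 9.26 and 9.17, a difference of -0.083. MMP20, the enamel protease next to MMP7 on the other side, had signals of 4.16 and 4.27, both below the floor. None of the genes from MMP20 to MMP13 was measured, and MMP27, MMP8, MMP10, MMP3 and MMP12 had differences from -0.17 to 0.23. YAP1, the transcriptional co-activator of the Hippo pathway, stood at -0.045, and BIRC2, an inhibitor of apoptosis, at -0.32. Beyond MMP13, DCUN1D5, a neddylation cofactor, was measured at -0.33. CFAP300 and the dynein heavy chain gene DYNC2H1, at the ends of the stretch, had differences of -0.45 and -0.41 with signals below the floor. BIRC3 had no row of its own. In all, 5 of the 15 genes with a row were measured, all 5 had negative differences, and MMP7 was the one past 1.5-fold. Among all measured genes 47.8% had a positive difference. For each of the 5 genes the 200 neighbours in signal also had a negative median, from -0.12 for YAP1 to -0.078 for DCUN1D5. YAP1 and TMEM123 lay above the median of their neighbours, with 120 and 102 of 200 lower. BIRC2 and DCUN1D5 lay below it, with 38 and 19 of 200 lower. MMP7 was chosen with its difference known.

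**Figure D3:**
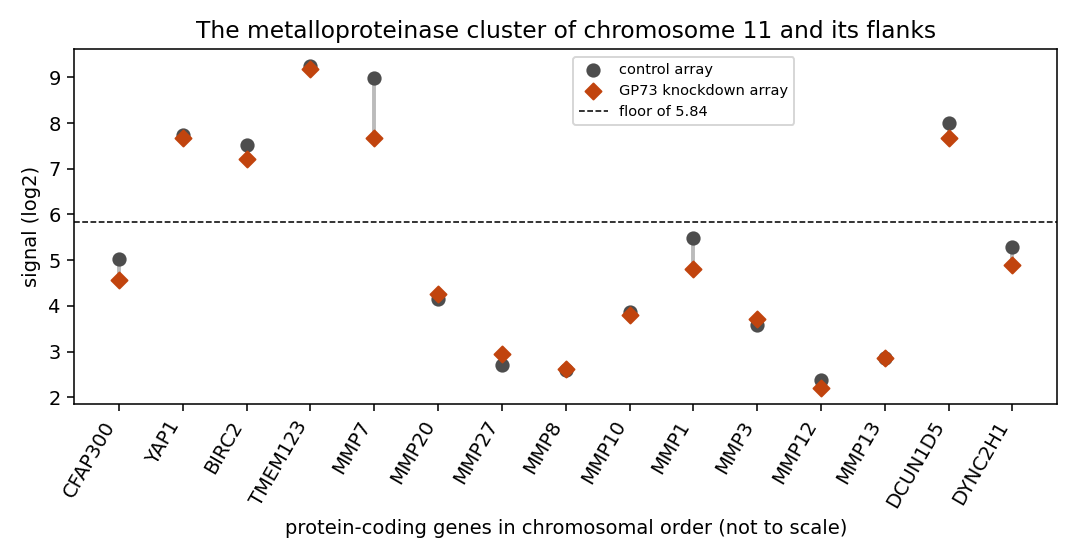
Log2 signal (y axis) in the control array (grey circles) and the GP73 knockdown array (orange diamonds) of the protein-coding genes with a row in the metalloproteinase cluster of chromosome 11 and its flanks, in chromosomal order and not to scale (x axis). MMP7 goes from 8.98 to 7.68 between TMEM123, at 9.26 and 9.17, and MMP20, which is below the dashed floor of 5.84 in both arrays.

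Other genes of the pathway were taken from lists made with earlier results of these arrays known. Their counts are set beside all measured genes, of which 47.8% had a positive difference, with a median of -0.0063. Of the 12 other metalloproteinases with a row, 10 had a positive difference, against 56.8% of all protein-coding genes with a row. That share takes in the measured genes, whereas most of the 12 lay below the floor, so it is not matched in signal. The median of these 12 was 0.13, and that of the protein-coding genes below the floor was also 0.13. Measured were 2 of the 12: MMP25, a membrane-anchored enzyme of neutrophils, at 0.24, and MMP17, also membrane-anchored, at 0.24. MMP25, at 5.83 and 6.08, passed the floor through the knockdown array alone. About 80% of genes of like signal had a lower difference than either, 160 of 200 for MMP25 and 161 of 200 for MMP17.

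The inhibitors were higher where measured. TIMP1, which inhibits most secreted metalloproteinases, went from 7.69 to 8.01, a difference of 0.33, with 194 of its 200 neighbours in signal lower. TIMP3, which binds to the matrix and also blocks ADAM proteases, went from 8.59 to 8.90, a difference of 0.31, with 188 of 200 lower. TIMP4 went from 6.57 to 6.96, a difference of 0.38, with 196 of 200 lower. All 3 measured inhibitors of the 7 with a row were thus higher, none by 1.5-fold. RECK, a membrane-anchored inhibitor, went the other way, from 5.21 to 4.87, below the floor in both arrays. TIMP2 had no row of its own.

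Of the 12 measured genes of proprotein convertases and plasminogen activation, which act on metalloproteinase precursors directly or indirectly, 10 were higher and 2 lower, with a median of 0.13. PLAT, the tissue plasminogen activator, stood at 0.38 and PLAUR, the urokinase receptor, at 0.30. PCSK5, a convertase, stood at 0.21 and SERPINF2, the plasmin inhibitor, at 0.20. ST14 passed the floor through the knockdown array alone, and without it 9 were higher. None of the 12 was at least 1.5-fold different. FURIN itself had signals of 6.89 and 6.84.

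Of 11 measured genes for docking, induction and clearance, 5 were higher and 6 lower. THBS1, a matrix protein that takes part in clearing MMP2, stood at 0.37, and LRP1, the endocytic receptor that takes up metalloproteinases, at -0.22. CD151, a tetraspanin, stood at 0.19, and BSG, an inducer of metalloproteinases in neighbouring cells, at -0.16. CD44, a surface receptor that can hold MMP7 and MMP9, had signals of 8.21 and 8.20. The genes for proteins that MMP7 is known to cut were also split, with 6 of 11 measured members higher. Their median was 0.053, and -0.033 with median centring. COL4A2 passed the floor through the knockdown array alone, and without it 5 were higher and 5 lower. NID1, a basement membrane linker, stood at -0.36, CCN2 at 0.33, CDH1, E-cadherin, at 0.24 and ITGB4 at -0.17.

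Among the ADAM proteases, membrane enzymes that release surface proteins, 3 of 7 measured genes were higher and 4 lower. The tumour necrosis factor convertase ADAM17 stood at -0.36 and ADAM10 at -0.23, while ADAM33 and ADAM8 stood at 0.30 each. All 7 measured ADAMTS genes, secreted relatives with thrombospondin repeats, had positive differences, from 0.017 to 0.32, with a median of 0.20. ADAMTS2 stood at 0.32, ADAMTS16 at 0.30, ADAMTS13 at 0.26 and ADAMTS14 at 0.20. Of these, ADAMTS2, ADAMTS13 and ADAMTS14 lay under the floor on the control array, so the knockdown array alone made them count as measured. That fixes their sign as positive. The neighbours in signal of the 7 genes had medians from -0.037 for ADAMTS12 to 0.13 for ADAMTS2. ADAMTS15, at 0.017, lay below the median of its neighbours, 0.081.

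Factors known to act on metalloproteinase promoters differed in both directions. Of 12 measured AP-1 and ETS factors, 9 were higher and 3 lower, with a median of 0.13. FOSL1, an AP-1 subunit, was 1.52-fold higher, from 7.20 to 7.80, and none of its 200 neighbours in signal had a higher difference. JUNB stood at 0.40, JUND at 0.29 and JUN at -0.20. EHF, an epithelial ETS factor, was the lowest of the list at -0.53, from 7.15 to 6.61, with 6 of 200 neighbours lower. ETV4, an ETS factor linked to MMP7 in intestinal tumours and looked up outside the naming rule, had signals of 7.04 and 7.21.

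MMP7 is a known target of beta-catenin and TCF in colorectal tumours. Of 16 measured genes of that pathway and its targets, 9 were higher and 7 lower. RNF43, a feedback inhibitor, was 1.65-fold lower, from 6.93 to 6.21, and was the one gene of the list past 1.5-fold. SP5 stood at 0.35, TCF7L2 at 0.35 and APC at -0.27. The feedback gene AXIN2, looked up outside the naming rule, had signals of 7.12 and 7.15, a difference of 0.030. SP5 and TCF7L1 were under the floor on the control array, and of the 14 genes above it on both arrays 7 were higher and 7 lower. The median of the list was 0.015, and its sign changed with median centring of the arrays.

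**Figure D4:**
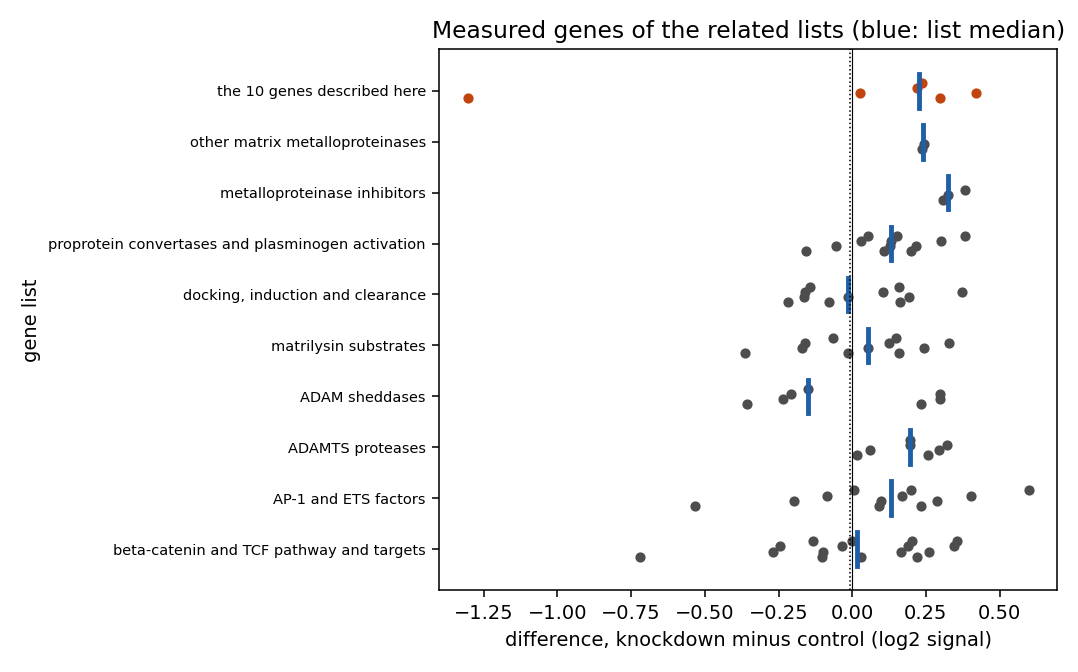
Difference in log2 signal, knockdown minus control (x axis), of the measured genes (points) among the 10 metalloproteinase genes (orange) and in the 9 pathway lists (grey) on the y axis, with the cell type markers and the chromosome 11 cluster not plotted; blue ticks are list medians, the dotted line is the median of all measured genes at -0.0063. MMP7 at -1.30 is the lowest point plotted, and the next lowest is RNF43 at -0.72.

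Stromal, endothelial and immune cells also make metalloproteinases, and their markers were looked up beside these values. Of the fibroblast and stellate cell markers 2 of 11 with a row were measured, COL6A3 at -0.22 and COL1A1 at 0.17. Of the endothelial markers 5 of 10 were measured, 2 higher and 3 lower. Above the floor on both arrays were 4 of these, 2 higher and 2 lower. PECAM1 was 1.64-fold lower with a knockdown signal of 5.26, below the floor, while ENG stood at 0.32, LYVE1 at 0.19 and CLDN5 at -0.079. Of the leukocyte markers 4 of 12 were measured and all 4 had positive differences, CD68 at 0.49, NKG7 at 0.47, MPO at 0.33 and ELANE at 0.25, of which all but CD68 lay under the floor on the control array. PTPRC, the pan-leukocyte marker, had signals of 2.34 and 2.42. The summed linear signal of all rows of the leukocyte list, measured or below the floor, was 941 in control cells and 1253 after knockdown. CD68, a lysosomal protein gene that is not restricted to leukocytes, made up 610 and 857 of it, and the other genes together 332 and 397. That of the fibroblast list was 329 and 356, and that of the endothelial list 460.1 and 465. These sums add signals of different probes and are not amounts of transcript. Both arrays carried RNA labelled as the cell line MHCC97H, not as tissue, and the source of these marker signals was not tested.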

How the data were processed

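The deposited table held log2 signals of 70523 rows in 2 arrays, which the submitters' processing notes credit to Affymetrix Expression Console. How the authors corrected background, normalised, summarised probes and chose a genome build is not given in the sources used. Log2 was inferred from the range: the values ran from 0.36 to 13.2 and from 0.33 to 13.3, with medians of 4.72 and 4.80. The labels' protocols give 100 ng of total RNA per array.

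The platform annotation gave 1 symbol for 23781 rows, several for 1543 and none for 45199. The NCBI gene table of GRCh38.p14 served to update symbols, through the gene identifier for 21497 rows. For a gene with several rows the one with the highest mean was used. No test was possible with 1 array per group, and the number of arrays limits the precision. Percentiles among 200 genes of like signal describe these arrays and are no p-values; the 10 genes were left out of the 200. The members, lists and naming rule were chosen with earlier results of these data known. The rule names all members, GOLM1, all genes of the chromosome 11 cluster, the up to 4 measured genes per list that differed most and 5 genes nearest to MMP7. Others are named as references for the knockdown, the cell type or a list. Procedures were tested on simulated data. Python 3.11.15, pandas 2.3.3 and statsmodels 0.14.6 were used.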

Additional observations from a re-analysis of the deposited data

Results flagged for a closer look

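A row annotated to both MMP23B and MMP23A was outside the choice of genes because it carries more than 1 symbol. Its log2 signal was 6.39 in control cells and 6.66 after knockdown, and the difference of 0.27 above the control is why it is listed here. The split of signal between these near-identical genes is unknown.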

How the results depend on the processing

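The alternatives were median centring, quantile normalisation, removal of the trend over signal level (lowess), the mean over rows, other floors and thresholds, and other sets of genes of like signal. The MMP7 difference ran from -1.39 to -1.23 and that of GOLM1 from -1.75 to -1.59. MMP7 stood at the 1.0th percentile of its 200 neighbours, at the 2.0th of 100 and the 0.4th of 500, and, with neighbours in control signal, chosen after seeing the data, at the 0.5th. The differences of MMP7, MMP1 and GOLM1 kept their sign under the scalings tried, and those of genes outside the 10 were not recomputed apart from GOLM1 and the list medians. MMP14, near 0, reached -0.061 with median centring. The median over the 10 genes, 0.16, was -0.047 as a mean and -0.44 under a 75th-percentile floor, which leaves MMP7 and MMP24 alone. At 1.5-fold 2 members were lower and at 3-fold 0. Measured genes past the threshold numbered 15 lower and 18 higher at 2-fold, 174 and 121 at 1.5-fold, and 2 and 2 at 3-fold; lower ones numbered 23 with no floor and 9 with the higher floor. Medians of 5 of the 15 lists changed sign under some alternative. These lists were docking, matrilysin substrates, beta-catenin targets, fibroblast and endothelial genes, and their counts and medians are not read as a direction. No paired analysis was possible because each group has 1 array, and no replicate could be left out. The cause of these shifts was not tested.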
